A study of Mus musculus with 8 samples.

Results

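The 9 MHC class I heavy chain genes described here were taken by name from the count files of CD11b+ brain cells, which hold 20308 genes for each of 8 mice. *H2-K1* and *H2-D1* are the classical genes, and *H2-Q2*, *H2-Q6*, *H2-Q7*, *H2-Q10*, *H2-M3*, *H2-T23* and *H2-T24* are the non-classical genes, 7 in number. A further 18 class I symbols in the files were used only for comparison. The mice were F1 offspring of a CD1 by C57Bl/6 cross aged 14 or 15 days, with 4 control mice and 4 CSF1 OE mice, and each mouse gave 1 library with nothing pooled. CSF1 OE mice carry a TRE/tTA transgene pair that makes secreted CSF1, a growth factor for microglia, in a subset of cells with GFAP, a protein of astrocytes. Which transgenes the control mice carry is not given in the sources used here. Cells were taken from the right brain hemisphere with CD11b magnetic beads after Percoll removal of myelin. The comparison asks how class I expression in these cells differs where the brain makes more CSF1.

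A class I molecule consists of a heavy chain, the light chain B2M and a short peptide, which is cut by the proteasome, carried into the endoplasmic reticulum by the TAP transporter and displayed on the cell surface. Classical heavy chains are highly polymorphic and show peptides to CD8 T cells. Non-classical chains are less variable and have narrower tasks, such as engaging the CD94/NKG2 receptors of natural killer cells. Microglia, like other nucleated cells, can display class I, and interferons are known inducers of it.

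All 9 genes lie on mouse chromosome 17 and are annotated as protein coding (GENCODE M21, GRCm38). *H2-K1* runs from 33996017 to 34000347 on the minus strand, apart from the others. *H2-D1* occupies 35262730 to 35267499 on the plus strand. It is followed on the same strand by *H2-Q2* at 35342242 to 35346762, *H2-Q6* at 35424850 to 35430055, *H2-Q7* at 35439155 to 35443773 and *H2-Q10* at 35470089 to 35474563. The T genes follow on the minus strand, *H2-T24* at 36005695 to 36020560 and *H2-T23* at 36029773 to 36032855. *H2-M3* is the most distal at 37270220 to 37274484 on the plus strand.

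RefSeq promoter windows (GRCm38.p6, 250 bases before to 50 bases after a gene start) were found for 8 of the 9 genes, with *H2-T24* as the exception. The following stretches are shown because they hold the sequence that most of the members share upstream of the start. Each reads 5′ to 3′ on the strand of the gene. Capitals mark matches to the NF-kB consensus and, to the right of it, TTTCACTTC, which is GAANNGAAA on the opposite strand, a spelling of the interferon-stimulated response element core.
H2-K1, chr17:34000399-34000478, minus strand: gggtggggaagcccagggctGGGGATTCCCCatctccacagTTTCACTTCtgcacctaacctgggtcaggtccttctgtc
H2-D1, chr17:35262923-35262952, plus strand: GGGGATTCCCCatctcctcagTTTCACTTC
H2-Q6, chr17:35424657-35424736, plus strand: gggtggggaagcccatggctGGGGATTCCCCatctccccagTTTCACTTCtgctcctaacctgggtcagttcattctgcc
H2-Q7, chr17:35439001-35439080, plus strand: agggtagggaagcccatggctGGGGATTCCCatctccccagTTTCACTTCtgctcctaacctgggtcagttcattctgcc
H2-Q10, chr17:35469893-35469972, plus strand: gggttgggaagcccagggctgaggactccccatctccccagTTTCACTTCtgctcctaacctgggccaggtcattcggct
H2-M3, chr17:37270089-37270168, plus strand: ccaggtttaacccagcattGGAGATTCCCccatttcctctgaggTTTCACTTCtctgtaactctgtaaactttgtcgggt

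For *H2-D1* only 30 bases are printed, because 1 GENCODE transcript of the gene starts further upstream and the stretch lies in its 5′ UTR. Over the full 80 bases *H2-D1* matched *H2-K1* at 78 positions without gaps, *H2-Q6* at 74, *H2-Q10* at 70 and *H2-Q7* at 59. *H2-M3* matched at 33, *H2-Q2* at 32 and *H2-T23* at 30, where other offsets in the same windows gave medians between 19 and 21. GAANNGAAA was found in the windows of *H2-K1*, *H2-D1*, *H2-Q6*, *H2-Q7*, *H2-Q10* and *H2-M3*, and in 7.52% of all 32851 windows on either strand. This spelling was added after the first search, so its presence in the members is a description. The NF-kB consensus was found in *H2-K1*, *H2-D1*, *H2-Q6*, *H2-Q7* and *H2-M3*, and in 8.46% of all windows. GAAANNGAA was found only in *H2-T23* among the 8 (8.56% of all windows), and TTCNNNGAA, the gamma-activated site, only in *H2-M3* (8.30%). The *H2-Q2* window held none of the 4 motifs. The NF-kB and GAANNGAAA matches do not overlap each other, and a match is a run of letters, not a shown binding site.

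The 9 genes share reads to different extents. The authors counted with RSEM, which splits reads of ambiguous origin among the genes they match, and the expected counts of all members except *H2-M3* and *H2-T24* were not whole in 8 of 8 libraries. Those of *H2-M3* were whole in every library, and those of *H2-T24* were not whole in 4. When each member's transcripts were cut into windows as long as a read, 8.53% of the windows of *H2-Q7* also occurred exactly in a transcript of another gene, mostly *H2-Q10* (198 windows), *H2-Q6* (141) and *H2-Q5* (95). The share was 8.21% for *H2-Q6*, 5.24% for *H2-Q10*, 3.74% for *H2-Q2*, 2.62% for *H2-D1* and 1.2% for *H2-T23*. It was 0.072% for *H2-K1*, or 3 of 4169 windows, and 0 for *H2-M3* and *H2-T24*. Values of the Q genes are therefore less certain one by one than as a sum. Windows were pooled over all annotated transcripts of a gene (16 for *H2-K1*, 6 for *H2-Q7* and 2 for *H2-Q6*), and only exact matches counted. The shares are thus not shares of reads and compare only roughly between genes.

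**Figure D1:**
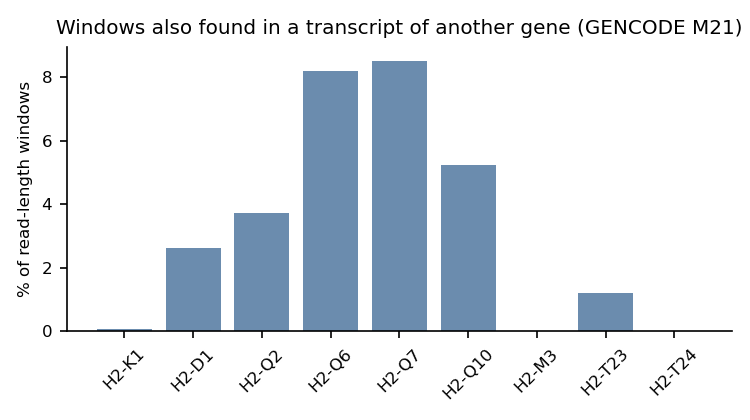
Share of read-length windows of each member's transcripts (y axis, percent) that occur exactly in a transcript of another gene in GENCODE M21, with 1 bar per gene. The bars of H2-Q6 and H2-Q7 reach 8.21% and 8.53%, and those of H2-M3 and H2-T24 are at 0.

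Libraries held between 12908195 and 15475488 counts in control and between 12053280 and 14356538 in CSF1 OE mice. Levels are given as CPM, counts scaled to the TMM-normalized library size, and the genotypes were compared by edgeR (quasi-likelihood test) over the 13407 genes that passed its filter on low counts, with Benjamini-Hochberg adjustment over all of them. To be called, a gene needed an adjusted p under 0.05 together with a fold under 0.7 or over 1.43. Over all genes 59 were called, 52 higher and 7 lower in CSF1 OE mice (270 higher and 157 lower with DESeq2), and the median log2 fold change was -0.03. All 9 members passed the filter, with counts between 18 (*H2-Q2*) and 7857 (*H2-D1*) per library. *Csf1* itself had between 139 and 364 CPM in the controls and between 167 and 400 CPM in the CSF1 OE mice, overlapping ranges (log2 fold change 0.19, edgeR adjusted p = 0.796). These are values of CD11b-selected cells, whereas the transgene is driven in cells with GFAP. By RT-qPCR the paper reports raised *Csf1* in CSF1 OE mice of similar age. The 9 microglia markers included *P2ry12*, *Tmem119*, *Csf1r* and *Fcrls*. They summed to between 22081 and 38465 CPM in the controls and between 28375 and 39539 CPM in the CSF1 OE mice. By estimate 4 were higher and 5 lower, with none called by edgeR and 1 called lower by DESeq2. An unadjusted p under 0.05 was reached by 1 of the 9, against 16.5% of all genes tested. *Fcrls* had 3247 ± 818 CPM in the controls and 2104 ± 144 CPM in the CSF1 OE mice, with overlap (log2 fold change -0.63, edgeR adjusted p = 0.168).

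Both classical genes rose in CSF1 OE mice. *H2-K1* had 135, 112, 121 and 132 CPM in control mice 1827, 1872, 1874 and 1934, and 214, 245, 226 and 256 CPM in mice 1931, 1932, 1936 and 2019 of the CSF1 OE group. The genotypes lay far apart, since the lowest CSF1 OE mouse was well above the highest control. The means were 125.2 ± 10.48 and 235 ± 18.9 CPM (SD, n = 4 each), and the log2 fold change was 0.91 (standard error, SE, 0.09, edgeR adjusted p = 0.0111). In bulk RNA of bead-selected cells, a larger share of cells with a gene and more RNA of it per cell cannot be told apart.

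*H2-D1* had 316, 292, 280 and 255 CPM in the control mice and 452, 454, 536 and 460 CPM in the CSF1 OE mice, in the same order of mice. CSF1 OE mouse 1936 stood above the other 3, which lay between 452 and 460 CPM, and the genotypes did not overlap. The mean rose from 286 ± 25.4 to 475 ± 40.3 CPM, by 0.73 on the log2 scale (SE 0.10, edgeR adjusted p = 0.0365). Without control mouse 1872 neither classical gene was called (adjusted p = 0.0799 for *H2-K1* and 0.171 for *H2-D1*), and without control mouse 1874 neither was (0.0671 and 0.169). With either of these controls left out, edgeR called only 3 genes over all genes tested. The call of *H2-D1* was lost as well on leaving out mouse 1934 (0.0542), 1931 (0.114), 1932 (0.0548) or 1936 (0.105), all from edgeR, while its log2 fold change stayed between 0.68 and 0.79.

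**Figure D2:**
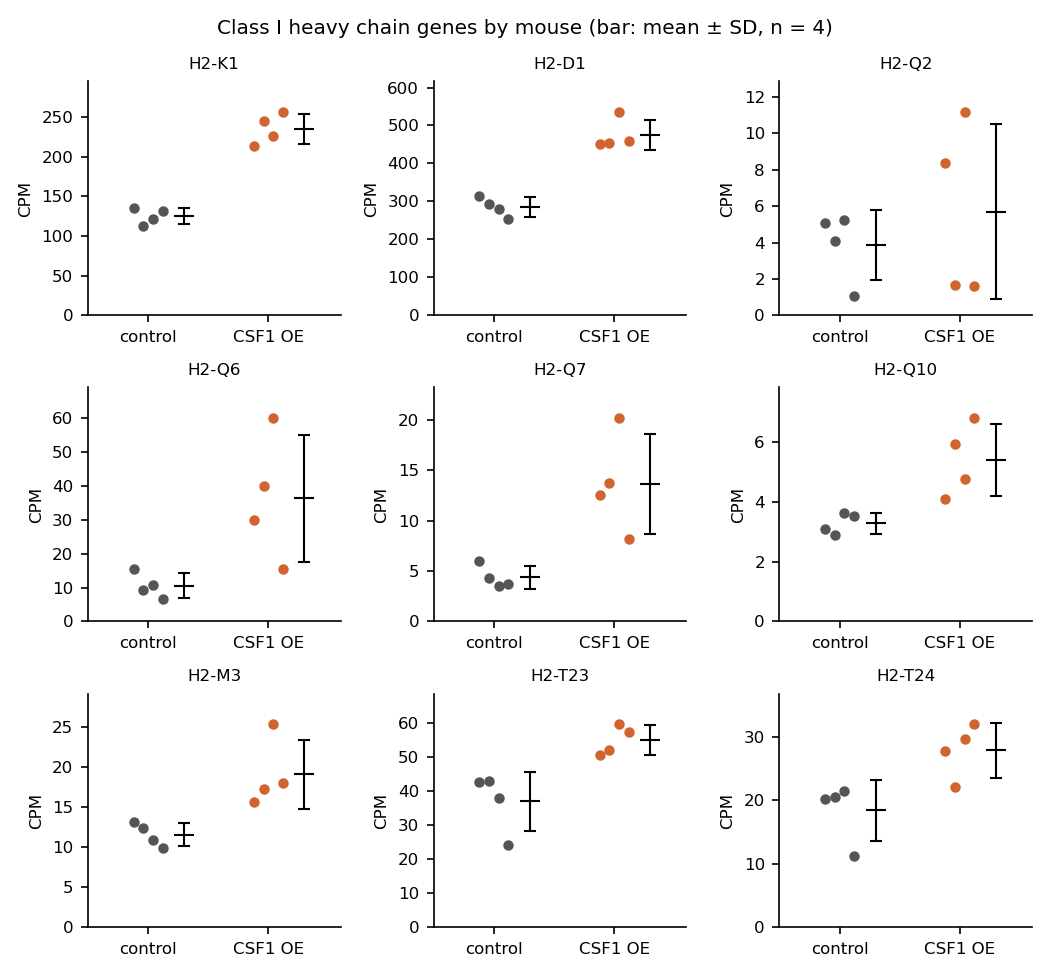
CPM of each of the 9 genes in each mouse (points, grey for control and orange for CSF1 OE, with a separate y axis from 0 for each gene) beside the mean ± SD of the 4 mice. The genotypes do not overlap except in H2-Q2, and H2-Q6 and H2-Q7 are spread most widely among the CSF1 OE mice of the genes without overlap.

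None of the 7 non-classical genes was called by edgeR, although 6 of them had an unadjusted p under 0.05, against 16.5% of all genes tested (2214 of 13407). In the same 6 every CSF1 OE mouse was above every control mouse, against 6.84% of all genes tested (917 of 13407). DESeq2 called 5 of the 7, where it called 3.31% of all genes with an adjusted p, and limma called 1, against 0.783% of all genes. The largest estimated differences were those of *H2-Q6* and *H2-Q7*, which encode Qa-2 antigens. *H2-Q6* had 15.45, 9.41, 10.8 and 6.62 CPM in the controls and 30.1, 40.0, 60.1 and 15.49 CPM in the CSF1 OE mice. CSF1 OE mouse 2019 was thus almost level with control mouse 1827, and mouse 1936 was at 3.88 times the level of 2019. The means were 10.57 ± 3.69 and 36.4 ± 18.7 CPM, and the log2 fold change was 1.79 (SE 0.40, edgeR adjusted p = 0.0794).

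*H2-Q7* had 5.98, 4.29, 3.55 and 3.67 CPM in the controls and 12.6, 13.7, 20.2 and 8.14 CPM in the CSF1 OE mice. The CSF1 OE mice came in the same order as for *H2-Q6*, again without overlap. The means were 4.37 ± 1.12 and 13.7 ± 4.97 CPM, and the log2 fold change was 1.64 (SE 0.29, edgeR adjusted p = 0.0524). *H2-Q6* and *H2-Q7* share windows with each other, and their sum went from 14.9 ± 4.68 to 50.1 ± 23.7 CPM, a difference of 1.66 in mean log2 CPM. Without CSF1 OE mouse 2019 both genes were called (adjusted p = 0.0433 for *H2-Q6* and 0.0429 for *H2-Q7*), and *H2-Q7* was also called without control mouse 1827 (0.0428), all from edgeR. Over all genes the same fits called 72 of 13638 without mouse 2019 and 164 of 13548 without mouse 1827.

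*H2-Q10*, which encodes a secreted class I chain known mainly from liver, had 3.09, 2.90, 3.63 and 3.55 CPM in the controls and 4.11, 5.95, 4.77 and 6.82 CPM in the CSF1 OE mice. The genotypes did not overlap, but all 8 values were low, 42 to 81 counts per library. The log2 fold change was 0.71 (SE 0.22, edgeR adjusted p = 0.161). *H2-Q2* had 5.11, 4.08, 5.22 and 1.06 CPM in the controls and 8.38, 1.69, 11.2 and 1.59 CPM in the CSF1 OE mice. It was the only member whose genotypes overlapped, with a highest value 4.90 times the lowest among controls and 7.02 times among CSF1 OE mice. Its log2 fold change of 0.57 had a standard error of 0.70 (edgeR adjusted p = 0.709).

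*H2-M3*, whose product presents N-formylated peptides, had 13.2, 12.4, 10.9 and 9.94 CPM in the controls and 15.7, 17.3, 25.4 and 18.1 CPM in the CSF1 OE mice. As for *H2-D1*, mouse 1936 was the highest and the genotypes did not overlap. The log2 fold change was 0.72 (SE 0.17, edgeR adjusted p = 0.0937). It shared no window with another gene, and its expected counts were whole throughout.

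*H2-T23* encodes Qa-1, the ligand of CD94/NKG2 receptors. It had 42.6, 42.8, 38.0 and 24.2 CPM in the controls and 50.5, 52.0, 59.6 and 57.4 CPM in the CSF1 OE mice. Control mouse 1934 lay below the other 3 controls, and all CSF1 OE mice lay above all controls. The means were 36.9 ± 8.73 and 54.9 ± 4.32 CPM, and the log2 fold change was 0.57 (SE 0.17, edgeR adjusted p = 0.159). *H2-T24* had 20.3, 20.5, 21.5 and 11.3 CPM in the controls and 27.8, 22.04, 29.6 and 32.0 CPM in the CSF1 OE mice. Mouse 1934 was again low, and CSF1 OE mouse 1932 was close to the highest control. The log2 fold change was 0.60 (SE 0.21, edgeR adjusted p = 0.209).

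Over the 9 members, 2 were called higher, or 2 of 9 where 0.388% of all genes tested were called higher (0.440% in either direction), and 8 had an unadjusted p under 0.05, against 16.5% of all genes tested. Every CSF1 OE mouse was above every control mouse in 8 of 9 members, against 6.84% of all genes tested. The median log2 fold change of the members was 0.72, that of the classical pair 0.82 and that of the 7 non-classical genes 0.71.

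Because the members share reads, their counts were also added. The sum of the 9 genes was 556, 501, 495 and 447 CPM in the controls and 815, 851, 972 and 855 CPM in the CSF1 OE mice. The genotypes did not overlap, and all 4 controls lay far below the lowest CSF1 OE mouse. The means were 500.0 ± 44.7 and 873 ± 68.3 CPM, a ratio of 1.75. Adding the other 18 class I symbols gave 594 ± 52.1 and 1003 ± 82.6 CPM, so the 9 members held most of the class I counts in both genotypes.

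The classical sum was 451, 405, 402 and 387 CPM in the controls and 666, 698, 761 and 716 CPM in the CSF1 OE mice. The non-classical sum was 106, 96.4, 93.7 and 60.4 CPM in the controls and 149, 153, 211 and 139 CPM in the CSF1 OE mice. Neither sum overlapped between genotypes. The ratio of the means was 1.73 for the classical and 1.83 for the non-classical sum, and the difference in mean log2 CPM was 0.79 and 0.88. Within the non-classical genes this difference was 1.41 for the sum of *H2-Q2*, *H2-Q6*, *H2-Q7* and *H2-Q10* and 0.63 for the sum of *H2-M3*, *H2-T23* and *H2-T24*. Among the Q genes, *H2-Q6* and *H2-Q7* had larger fold changes than *H2-M3*, while those of *H2-Q10* and *H2-Q2* were not above it. Neither sum includes the other 18 class I symbols, which went from 94.0 ± 8.98 to 129.6 ± 15.5 CPM, mostly through *H2-Q4*. That relative rise was smaller, so the order of 1.73 and 1.83 depends on which genes are listed as non-classical.

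The ratio of non-classical to classical counts within a mouse does not depend on normalization. It was 0.234, 0.238, 0.233 and 0.156 in control and 0.224, 0.219, 0.277 and 0.195 in CSF1 OE mice. The genotypes overlapped, and the spread came from single mice, with control mouse 1934 low and CSF1 OE mouse 1936 high. The means were 0.216 ± 0.0397 and 0.229 ± 0.0347, a difference of 0.09 on the log2 scale that turned negative without control mouse 1934 (-0.05) or without CSF1 OE mouse 1936 (-0.0017). The ratio thus differed between the genotypes by less than its SD in either of them.

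**Figure D3:**
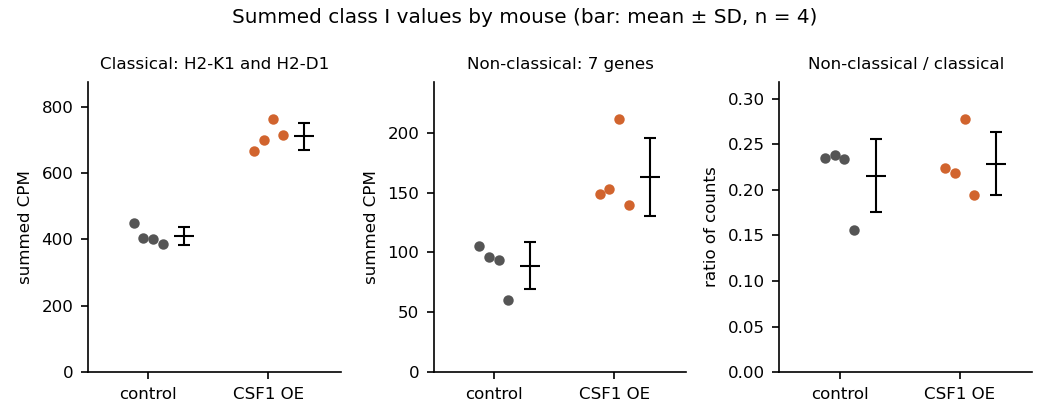
Summed CPM of the classical genes (left) and of the 7 non-classical genes (middle), and the within-mouse ratio of their counts (right), in each mouse, with mean ± SD of 4 mice. The sums do not overlap between genotypes, while the ratio lies between 0.156 and 0.238 in control and between 0.195 and 0.277 in CSF1 OE mice.

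Single genes were set against each other in the same way, for 3 pairs with abundant counts. The log2 count ratio of *H2-D1* to *H2-K1* was lower in CSF1 OE mice by 0.17 (1.19 ± 0.18 in control and 1.02 ± 0.18 in CSF1 OE mice), with overlap. The ratio of *H2-T23* to *H2-K1* went from -1.79 ± 0.45 to -2.10 ± 0.13, and that of *H2-T23* to *H2-D1* from -2.98 ± 0.28 to -3.11 ± 0.08. Two-sided exact permutation tests over the 70 assignments of mice gave p = 0.200, 0.257 and 0.371, each 0.371 after Benjamini-Hochberg adjustment over the 3 pairs, where 4 mice against 4 allow no p below 0.0286. Both *H2-T23* ratios were lowest among the controls in mouse 1934, and leaving it out made the differences larger, at -0.52 and -0.27. Exact permutation tests then gave an adjusted p of 0.0429 each, from the smallest p that 3 mice against 4 allow. As a share of the 9-gene sum, *H2-D1* took 57.2 ± 0.82% in control and 54.4 ± 1.03% in CSF1 OE mice. *H2-K1* took 25.2 ± 3.05% and 27.03 ± 2.97%, and *H2-Q6* 2.08 ± 0.55% and 4.10 ± 1.84%. Among the 9 members only the share of *H2-D1* did not overlap between genotypes. It lay between 56.6 and 58.4% in control and between 53.3 and 55.5% in CSF1 OE mice. Shares were not tested.

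Levels were compared between genes as CPM per kilobase of the longest coding transcript. In control mice the order was *H2-D1* (136 ± 12.1), *H2-K1* (77.3 ± 6.47) and *H2-T23* (25.1 ± 5.93), with no overlap between neighbours. *H2-T24* (8.44 ± 2.19), *H2-M3* (8.06 ± 1.01), *H2-Q6* (5.07 ± 1.77), *H2-Q2* (3.06 ± 1.53) and *H2-Q7* (2.87 ± 0.73) followed, each overlapping with the next, and *H2-Q10* (1.65 ± 0.18) was lowest without overlap with *H2-Q7*. In CSF1 OE mice the same 3 genes led, at 226 ± 19.2, 145 ± 11.7 and 37.3 ± 2.94. *H2-Q6* came next with 17.5 ± 8.99, and its values overlapped with those of *H2-M3* (13.3 ± 2.999) below it. Lengths over all exons lowered the control level of *H2-D1* to 110.8, of *H2-K1* to 42.6, of *H2-T23* to 12.8, of *H2-Q2* to 1.77, of *H2-Q7* to 1.03 and of *H2-Q10* to 0.757, with the control order as before.

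The wide spread of *H2-Q2* divided the mice of both genotypes. Mice 1934 (control), 1932 and 2019 (both CSF1 OE) had at most 1.69 CPM of *H2-Q2*, and the other 5 mice at least 4.08. The same 3 mice were lowest for *Gm11127*, a class I gene near *H2-T23*, with 2.78, 2.87 and 2.74 CPM against 6.02 or more in the others. For *Gm8909*, another class I gene of the T region, they were highest, with 3.96, 7.72 and 7.61 CPM against 2.59 or less. The count ratio of *H2-Q2* to *Gm8909* was 0.269 in mouse 1934, 0.219 in mouse 1932 and 0.209 in mouse 2019, and between 2.57 and 4.32 in the other 5. The count ratio of *H2-D1* to *H2-K1* was also lowest in these mice (1.93, 1.86 and 1.795, against 2.11 to 2.61). *H2-Q1*, which shares 77 windows with *H2-Q2*, had 1.48, 1.91 and 3.36 CPM in them and between 3.32 and 7.36 CPM in the others. This pattern was seen after the values were known and no groups were formed from it. The deposited counts give 1 value per gene and mouse and do not separate the alleles of the parental strains. CD1 is an outbred stock, so the mice need not carry the same class I alleles, and which alleles each mouse carried, and their part in these values and in the ratio of *H2-D1* to *H2-K1*, was not tested.

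**Figure D4:**
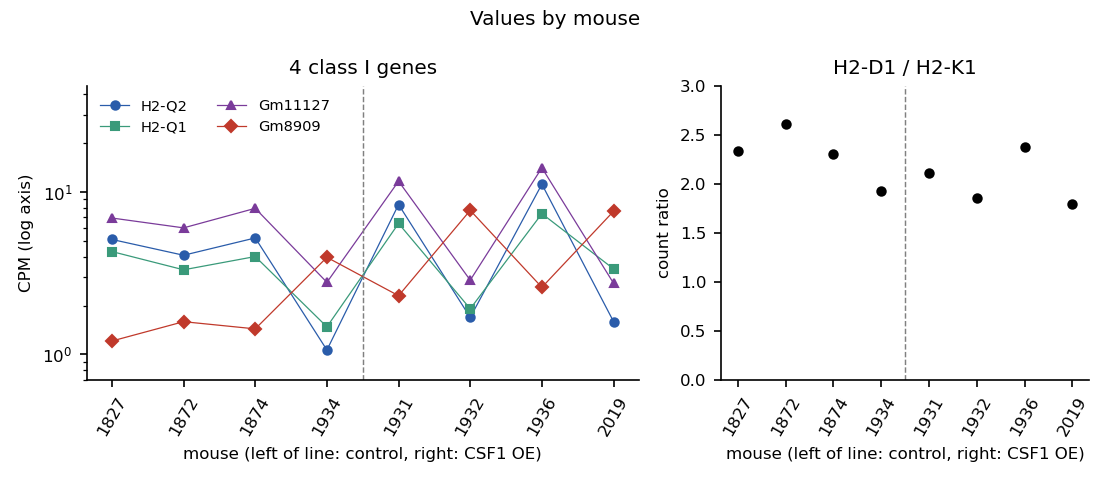
Left, CPM (log axis) of H2-Q2, H2-Q1, Gm11127 and Gm8909 in each mouse; right, count ratio of H2-D1 to H2-K1, with the dashed line between control and CSF1 OE mice. Mice 1934, 1932 and 2019 are low in H2-Q2 and Gm11127, high in Gm8909 and lowest in the ratio, in both genotypes.

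The likeness between genes was measured as the root mean square distance of their log2 CPM over the 8 libraries, each gene less its own mean. Among the members, *H2-D1* and *H2-M3* were closest (0.12), followed by *H2-T23* and *H2-T24* (0.14) and *H2-K1* and *H2-D1* (0.18). *H2-Q6* and *H2-Q7* were 0.27 apart, and *H2-Q2* was between 0.94 and 1.26 from every other member. Among 9364 other genes with at least 10 CPM, the 5 nearest to *H2-K1* were *Rpl39* (0.15), *Rtcb* (0.16), *Mad2l1* (0.16), *Plk4* (0.16) and *Rpl32* (0.16). The 5 nearest to *H2-Q7* were *Lgals3bp* (0.20), *Dhx58* (0.22), *Sp100* (0.25), *Oas1a* (0.28) and *Rtp4* (0.30). This distance also counts the size of the genotype difference. The log2 fold changes were between 0.67 and 0.75 for the 5 genes nearest to *H2-K1*. For the 5 nearest to *H2-Q7* they were between 1.45 and 1.95. The lists had no name in common, but with such different fold changes they could hardly share one, so nothing is drawn from it.

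Of the other 18 class I symbols 5 passed the filter, and 8 had no count in any library. All 5 were higher by estimate, and none was called by edgeR or DESeq2. An unadjusted p under 0.05 was reached by 3 of them, against 16.5% of all genes tested. *H2-Q4*, the most abundant of them, had 66.8, 64.8, 68.2 and 57.2 CPM in the controls and 80.2, 89.2, 104 and 81.2 CPM in the CSF1 OE mice. The genotypes did not overlap, at a log2 fold change of 0.47 (SE 0.10, edgeR adjusted p = 0.0753), which is below that of every member. *H2-T22* likewise did not overlap, with 18.0 ± 2.28 and 22.5 ± 0.91 CPM (log2 fold change 0.32, edgeR adjusted p = 0.221). *Gm8909* (1.28, adjusted p = 0.275), *H2-Q1* (0.54, adjusted p = 0.586) and *Gm11127* (0.42, adjusted p = 0.741) overlapped.

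Genes of the class I pathway were mostly higher by estimate, and 1 of them, *Psme1*, was called by edgeR. Of 9 genes for the light chain and peptide loading, 9 were tested and 9 were higher by estimate, with none called by edgeR, 2 at an unadjusted p under 0.05 and 2 called by DESeq2, so that the unadjusted count was close to the 16.5% of all genes, and their median log2 fold change was 0.12. *B2m*, the light chain, had 1086, 942, 883 and 670 CPM in the controls and 1311, 1229, 1489.7 and 1501 CPM in the CSF1 OE mice. The genotypes did not overlap (log2 fold change 0.63, SE 0.16, edgeR adjusted p = 0.104), as was also seen for *Tap1*, a subunit of the peptide transporter (0.60, adjusted p = 0.161). The smallest difference was that of *Calr*, the chaperone calreticulin (0.05). Of 5 genes of the immunoproteasome and its activator, which cut class I peptides, 5 were higher by estimate. An unadjusted p under 0.05 was reached by 3, against 16.5% of all genes tested. DESeq2 called 3, against 3.31% of genes with an adjusted p. In 3 of the 5 every CSF1 OE mouse was above every control mouse, against 6.84% of all genes tested. By edgeR 1 was called, where 0.388% of all genes tested were called higher. This was *Psme1*, a subunit of the PA28 activator, with 71.9 ± 6.23 CPM in the controls and 117 ± 13.2 CPM in the CSF1 OE mice (log2 fold change 0.71, SE 0.10, edgeR adjusted p = 0.0398). Leaving out mouse 1872, 1874, 1934, 1931, 1932 or 1936 ended this call. *Psmb10*, a catalytic subunit, had the smallest value at 0.34, and the median of the 5 was 0.65.

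Of 11 transcription factors known to act on class I promoters, 8 were higher by estimate and 3 lower, with none called by edgeR. An unadjusted p under 0.05 was reached by 5, against 16.5% of all genes tested. DESeq2 called 3, against 3.31% of genes with an adjusted p. *Nlrc5*, the class I transactivator, had 4.10, 2.35, 1.59 and 1.36 CPM in the controls and 5.26, 7.72, 9.68 and 5.93 CPM in the CSF1 OE mice. The genotypes did not overlap, and CSF1 OE mouse 1936 was the highest, as it was for *H2-Q6* and *H2-Q7*. Its log2 fold change was 1.604 (SE 0.37, edgeR adjusted p = 0.0873), and the lowest of the list was that of *Irf2* (-0.09). Of 8 class I receptors only *Pirb* (0.43) and *Klrd1* (-0.53), which encodes CD94, passed the filter and neither was called by edgeR or DESeq2, with 0 at an unadjusted p under 0.05. Of 6 class I-like genes outside the H2 complex 5 were tested, 2 higher and 3 lower by estimate, from 0.20 for *Mr1* to -0.60 for *Procr*, with none called by edgeR or DESeq2 and 1 at an unadjusted p under 0.05, a share near that of all genes.

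**Figure D5:**
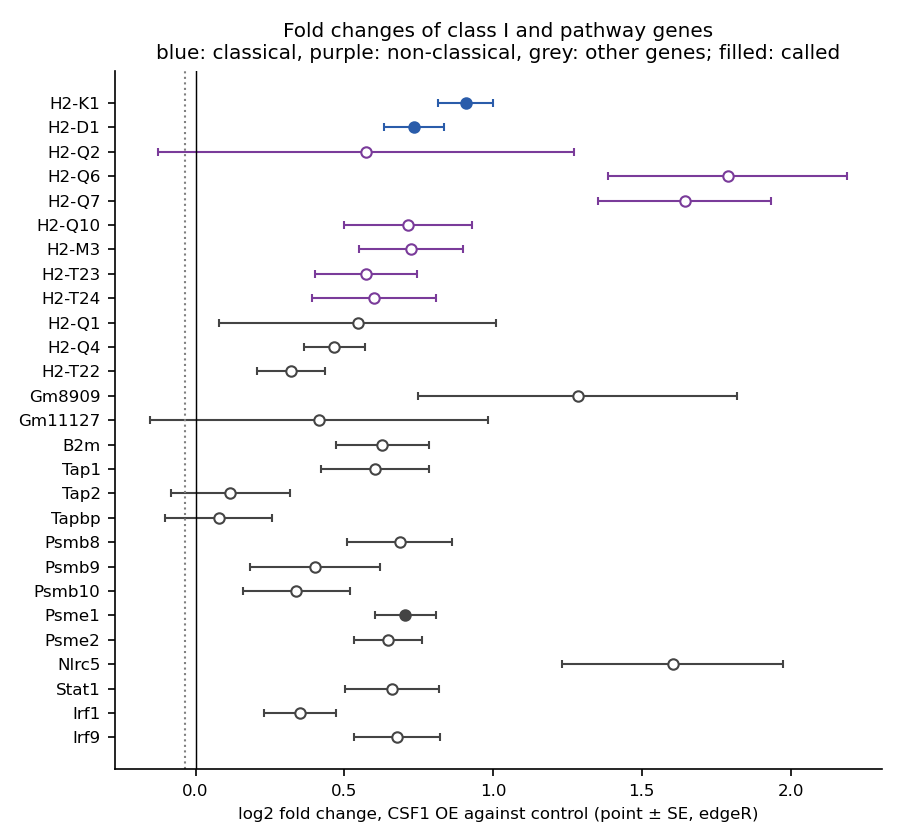
Log2 fold change of CSF1 OE against control (point ± standard error, edgeR) of the 9 members, of other class I genes and of genes of the class I pathway, with filled points for called genes and a dotted line at the median of all genes (-0.03). Only H2-K1, H2-D1 and Psme1 are filled, and H2-Q6, H2-Q7 and Nlrc5 lie furthest to the right.

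Markers of other cells that express class I differed between the libraries. All 9 endothelial markers were lower in CSF1 OE mice by estimate, with none called by edgeR, 4 at an unadjusted p under 0.05 and 2 called by DESeq2, and their sum was between 959 and 1505 CPM in the controls and between 448 and 1023 CPM in the CSF1 OE mice. All 7 border macrophage markers were also lower, with none called by edgeR, 5 at an unadjusted p under 0.05 and 1 called by DESeq2. They summed to between 1557 and 2477 CPM in the controls and between 1252 and 1871 CPM in the CSF1 OE mice. Of all genes tested 16.5% had an unadjusted p under 0.05, and DESeq2 called 3.31% of genes with an adjusted p. By estimate 6002 of all 13407 genes were higher in CSF1 OE mice. The estimates of both lists thus ran opposite to those of the class I genes. T and NK cell markers summed to between 12.4 and 19.96 CPM in the controls and between 9.34 and 15.05 CPM in the CSF1 OE mice, with *Ncr1* at 0 in every library. *Cd3e*, *Cd3d*, *Cd3g*, *Cd8a* and *Nkg7* had at most 8 counts in any library, too few to measure T or NK cells by them. Of this list 2 genes were tested, both at an unadjusted p under 0.05 and neither called by edgeR, and DESeq2 called 1, lower. *Cd4*, which made up most of the sum, was at -0.75 (edgeR adjusted p = 0.125), while *Klrb1c*, a receptor of natural killer cells, was at 1.53 (edgeR adjusted p = 0.134), with 0.269 to 0.68 CPM in the controls and 0.955 to 2.05 CPM in the CSF1 OE mice and no overlap. Heat shock and stress genes summed to between 6967 and 16102 CPM in the controls and between 5381 and 21413 CPM in the CSF1 OE mice. With the endothelial sum as a covariate, added after the data had been seen, no member was called by edgeR. An unadjusted p under 0.05 was reached by 5 members, against 2882 of all 13407 genes in that fit. *H2-K1* was at 0.85 (edgeR adjusted p = 0.0582) and *H2-D1* at 0.73 (edgeR adjusted p = 0.0639). With the heat shock sum no member was called and 7 had an unadjusted p under 0.05, against 1861 of all 13407 genes in that fit. *H2-K1* was then at 0.94 (edgeR adjusted p = 0.0505) and *H2-D1* at 0.73 (edgeR adjusted p = 0.108). With either covariate edgeR called 3 of all 13407 genes, or 0.0224%, so that calls were lost over all genes and not in the members alone. The part of these cells and genes in the class I values was not tested beyond this.

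The labels give no sequencing batch, but the animal numbers of control mouse 1934 and CSF1 OE mice 1931, 1932 and 1936 lie close together. The remaining mice, controls 1827, 1872 and 1874 and CSF1 OE mouse 2019, have numbers on both sides of these. Each set holds a single mouse of one genotype, so that these are values with no test. The difference in mean log2 CPM was 0.79 among mice 1931 to 1936 and 1.06 among the rest for *H2-K1*, and 0.91 and 0.64 for *H2-D1*. For the other members the sets differed more, with 2.65 and 0.41 for *H2-Q6*, 2.05 and 0.86 for *H2-Q7*, 1.153 and 0.48 for *H2-T23*, 1.22 and 0.62 for *H2-T24*, 0.94 and 0.58 for *H2-M3* and 0.46 and 1.09 for *H2-Q10*. *H2-Q2* went from 2.35 to -1.58. With a term for these sets edgeR called 6 members higher, namely *H2-K1*, *H2-D1*, *H2-Q7*, *H2-M3*, *H2-T23* and *H2-T24*. The same fit called 2.26% of all genes higher (303 of 13407) and 7.24% lower (971), among the latter 8 of the 9 endothelial markers, whose median was -1.14.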

How the data were processed

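RNA of CD11b+ cells was sequenced from paired-end libraries of 8 mice, grouped by the animal numbers and genotype codes of the labels. The authors mapped the reads with Bowtie 1.0.0 and made expected counts per gene with RSEM 1.2.7, without normalization, and per the labels' processing notes bcl2fastq 1.8.4 and the build mm10 were also used. The authors also deposited normalized values, a signal on the count scale, which served only for an alternative. In each library from 20.8% to 26.5% of expected counts were not whole, and all were rounded. Testing used R 4.3.3 and edgeR 4.0.16 (TMM, filterByExpr, glmQLFit and glmQLFTest). The study's own test, EBSeq, was not run, and its fold thresholds were kept. The p-values rest on the spread between separate mice. Log2 CPM used a prior count of 2. The methods were tested on simulated data. Windows and lengths came from GENCODE M21 and promoters from RefSeq.

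The members, lists, tests and alternatives were chosen with earlier results of these data known. The genes named are the members, other class I symbols with a mean of at least 1 CPM, in each pathway list the called genes and those with the largest rise and fall, *Csf1*, and the 5 genes nearest to *H2-K1* and to *H2-Q7*. *Tap1*, the members' neighbours in the mouse pattern and the markers given by name were picked once values were known. Alternatives comprised DESeq2 1.42.0, upper-quartile factors, other filters (any count, or a minimum of 10 per library), a robust prior, limma 3.58.1 on the normalized values (log2, pseudocount 1), a covariate for animal numbers from 1931 to 1936, each mouse left out, no fold threshold, unrounded counts, and 2 covariates added after the data had been seen. Sums over members and the ratio of the non-classical to the classical sum were given without a test, and 3 ratios between single members were tested by exact permutation.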

Additional observations from a re-analysis of the deposited data

Results flagged for a closer look

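Of 26 groups of 4 mice examined, 3 held a mouse whose gap to the nearest of the others relative to the range exceeded Dixon's critical value, where chance flags about 1 group in 20. *H2-D1* was at 536 CPM in CSF1 OE mouse 1936, against 452 to 460 in the other 3. *H2-T24* was at 11.3 CPM in control mouse 1934, against 20.3 to 21.5 in the other controls. The ratio of non-classical to classical counts was 0.156 in control mouse 1934, against 0.233 to 0.238 in the other controls. No explanation was tested.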

How the results depend on the processing

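No paired analysis was possible because the groups share no replicate number, the labels giving each mouse its own animal number. All alternatives were run. The 59 genes called became 427 with DESeq2 (270 higher, 157 lower), 105 with limma, 19 with upper-quartile factors and 1274 with the animal number covariate (303 higher, 971 lower, against 52 and 7), and with 1 mouse left out between 3 (without control 1872 or 1874) and 164 (without control 1827). The 2 members called became 7 with DESeq2, 6 with the animal number covariate, 0 with the endothelial or the heat shock covariate, and between 0 (without control 1872 or 1874, with 8 at an unadjusted p under 0.05 in edgeR) and 4 (without CSF1 OE 2019). Over all genes an unadjusted p under 0.05 was reached by 1612 without control 1872 and 1598 without control 1874. Leaving out CSF1 OE 2019 gave 72 genes called of 13638. The direction of *H2-Q2* alone among the members reversed, to -0.19 on the log2 scale with the heat shock covariate. Within animal numbers 1931 to 1936 and within the other mice, the non-classical sum differed by 1.48 and 0.50 in log2 CPM, its ratio to the classical sum by 0.61 and -0.27, and the ratio of *H2-D1* to *H2-K1* by 0.12 and -0.43. Within 1931 to 1936 the 9-gene sum differed by 0.97, the ratio of *H2-T23* to *H2-K1* by 0.37 and that of *H2-T23* to *H2-D1* by 0.24. With 1 mouse left out, the ratio of non-classical to classical counts lay between -0.0533 and 0.17 (-0.0017 without CSF1 OE 1936), that of *H2-T23* to *H2-K1* between -0.52 and -0.17, that of *H2-T23* to *H2-D1* between -0.27 and -0.0595, and that of *H2-D1* to *H2-K1* between -0.26 and -0.11. The classical sum stayed within its spread under every alternative run for it. The causes of these changes were not tested. Counts of 18 to 164 per library limit *H2-Q2*, and counts of 42 to 81 limit *H2-Q10*.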
